A study of Homo sapiens with 9 samples.

Results

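The genes described are 10 of the 63856 genes in the deposited tables, taken by their symbols from the genes of the Hippo pathway and its coactivators YAP and TAZ. They are the transcriptional coactivators YAP1 and WWTR1 (TAZ), the DNA-binding partners TEAD1 and TEAD4, the target genes CTGF, CYR61 and ANKRD1, and AMOTL2, LATS2 and AJUBA, which encode regulators of the pathway itself. In ESX1-activated cells ANKRD1, WWTR1, CYR61 and AMOTL2 rose against the wild type and YAP1, TEAD4 and CTGF fell. Of these 7 genes, 1 (TEAD4) also differed from the negative control at an adjusted p below 0.05. Of all tested genes, 28.8% differed from the wild type and 4.25% from the negative control at that level. The edgeR adjusted p of TEAD4 against the negative control was 0.0488, and it was below 0.05 in 8 of 19 alternative analyses. ANKRD1 and AMOTL2 also rose in the negative control against the wild type.

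RNA sequencing was performed in TCam-2, an established human line of testicular seminoma, in 3 groups of 3 biological replicates. The wild type (WT) carried no modification. The negative control (NC) was transfected with the px335_G2P vector, which also encodes GFP, carrying gRNAs nonspecific for the human genome. The ESX1-activated cells were transfected with px335_G2P vectors carrying gRNAs for ESX1, an X-linked homeobox gene, together with the PB-TRE-dCas9-VPR vector, which encodes a dead Cas9 fused to transcriptional activators. Whether NC also received dCas9-VPR is not given in the sources used here. The transfected cells were selected with puromycin and doxycycline and collected after 72 h, and it is not stated whether WT was treated in parallel. ESX1 activation, transfection and selection therefore cannot be told apart in a comparison with WT. If NC lacked dCas9-VPR, the presence of dCas9-VPR and ESX1 activation cannot be told apart in a comparison with NC. Each sample was a bulk RNA preparation of a whole culture, in which a change in the number of cells expressing a gene and a change in its RNA per cell cannot be told apart.

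The Hippo pathway is a kinase cascade. When it is active, the MST kinases (STK3 and STK4) activate the LATS kinases, which phosphorylate YAP and TAZ. The phosphorylated YAP and TAZ are then held in the cytoplasm and degraded. When it is inactive, YAP and TAZ enter the nucleus, bind TEAD proteins and switch on genes such as CTGF, CYR61 and ANKRD1, and also AMOTL2 and LATS2, whose products restrain YAP in turn. YAP and TAZ are regulated mainly at the protein level, by phosphorylation and location, and RNA-seq measures neither. The pathway responds to cell density, cell shape and attachment.

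TEAD proteins bind the sequence GGAATG, read as CATTCC on the other strand. Both forms were searched in promoter windows from 250 bases before to 50 bases after each RefSeq transcription start (GRCh38.p14). Windows were found for 7 of the 10 genes, and CYR61, TEAD1 and TEAD4 had no entry. Of all 35116 promoter windows, 14.03% held a match and 1.37% held at least 2. CTGF had 3 matches, which began 169, 104 and 95 bases before the start. ANKRD1 had 2 matches, which began 220 and 128 bases before it. A single match was found for each of YAP1, LATS2, AMOTL2 and AJUBA, the last 2 in the second of their 2 windows, and 0 were found in either window of WWTR1. The windows of CTGF and ANKRD1 are shown because both genes had more than 1 match and their RNA moved in opposite directions against WT. Capitals mark the matches, each sequence reads 5′ to 3′ on the strand of its gene, and only bases outside the annotated exons are shown apart from short stretches around a match. A match is a string of letters and says nothing about binding.
CTGF, chr6:131951374-131951622, minus strand: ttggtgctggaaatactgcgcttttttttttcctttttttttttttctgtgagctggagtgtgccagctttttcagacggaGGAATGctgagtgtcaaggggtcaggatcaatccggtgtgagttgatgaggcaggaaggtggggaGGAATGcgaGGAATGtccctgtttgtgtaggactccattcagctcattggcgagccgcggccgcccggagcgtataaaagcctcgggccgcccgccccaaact
ANKRD1, chr10:90921277-90921337, minus strand: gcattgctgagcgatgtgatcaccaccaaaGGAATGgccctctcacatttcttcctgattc
ANKRD1 second match, chr10:90921200-90921225, minus strand: cactgagtctGGAATGaaaattcacc
AMOTL2, chr3:134374501-134374526, minus strand: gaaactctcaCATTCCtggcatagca
YAP1, chr11:102110275-102110300, plus strand: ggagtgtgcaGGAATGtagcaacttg
LATS2, chr13:21061562-21061587, minus strand: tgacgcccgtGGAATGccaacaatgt
AJUBA, chr14:22976886-22976911, minus strand: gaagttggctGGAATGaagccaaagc
The second match of ANKRD1 and those of AMOTL2 and AJUBA lay within exons of the annotation used for the counts.

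Library totals lay between 5212804 and 10644408 counts, and the smallest library was ESX1-activated replicate 3. Levels are normalized CPM, the count of a gene relative to its library total after TMM scaling in edgeR. The 3 groups were fitted together over the 18452 genes with enough counts and compared by the quasi-likelihood test of edgeR, and adjusted p-values are those of Benjamini and Hochberg over these genes. In what follows a gene is said to rise or fall at an adjusted p below 0.05, and it is called differentially expressed when it also changed at least 2-fold. ESX1 itself had normalized CPM of 57.0, 55.7 and 31.4 in the ESX1-activated samples against 2.89 to 4.08 in the 6 control samples. All 8 seminoma markers (POU5F1, NANOG, SOX17, TFAP2C, PRDM1, KIT, LIN28A and ALPL) were above 3 counts in each group. Their summed normalized CPM was 3500 to 4280 in WT, 2640 to 2840 in NC and 1460 to 1810 in the ESX1-activated cells. WT replicate 1 stood apart from the other WT samples. Of 8 fibroblast markers, it held 70 counts of the collagen gene COL3A1 and 31 of LUM, which encodes the matrix protein lumican. The other WT samples held at most 6 and 0 counts of these 2 genes. The other fibroblast markers are not given by sample. WT replicate 1 was also the highest WT sample for YAP1, CTGF, CYR61, ANKRD1, AMOTL2 and AJUBA. The changes of the 10 genes against WT are therefore given with and without it. The part of these transcripts in the results was not tested.

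Against WT, 2 of the 10 genes were called, WWTR1 and ANKRD1, both higher, where 11.5% of all tested genes were called, 6.78% higher and 4.77% lower. At an adjusted p below 0.05 with any fold, 4 rose and 3 fell, against 28.8% of all tested genes, 12.9% rising and 15.8% falling. Against NC edgeR called 0 of the 10, where it called 1.78% of all tested genes, 1.08% higher and 0.699% lower, and against both controls in the same direction 0 of the 10 (background 1.53%). With any fold 1 gene, TEAD4, fell against NC, against 4.25% of all tested genes, 1.88% rising and 2.37% falling. DESeq2 and limma also called 0 against NC, and 3 genes (WWTR1, TEAD4 and ANKRD1) had an unadjusted p below 0.05 in edgeR. Between NC and WT, 1 gene (ANKRD1) was called, against 5.27% of all tested genes, 3.12% higher and 2.15% lower. With any fold 2 genes, ANKRD1 and AMOTL2, rose, against 17.1%, 6.82% rising and 10.3% falling. The comparisons of ESX1-activated cells with WT and with NC share the ESX1-activated samples, and the comparisons with WT share the WT samples, so their values are given side by side and are not independent. The median log2 fold change of the 10 genes was 0.02 against WT, -0.05 against NC and 0.08 between NC and WT, and over all tested genes it was 0.01, 0.00 and 0.01.

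**Figure D1:**
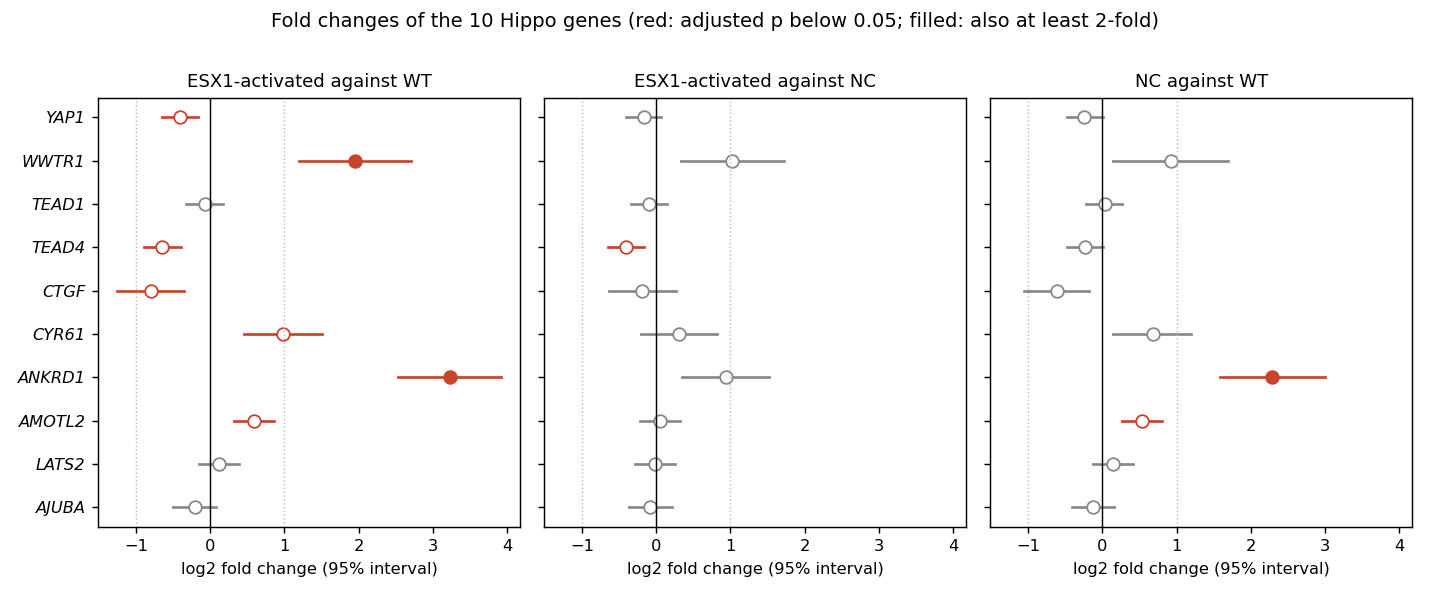
Log2 fold change of each gene (points) with its 95% interval (lines) in the 3 comparisons, with dotted lines at 2-fold. WWTR1 and ANKRD1 lie past 2-fold against WT, and against NC only the interval of TEAD4, at -0.41, is drawn in red for an adjusted p below 0.05.

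YAP1 encodes the coactivator for which the pathway is best known. Its normalized CPM was 266, 255 and 251 in WT, 188, 238 and 228 in NC, and 178, 212 and 192 in the ESX1-activated samples. Every transfected sample was below every WT sample, while NC and the ESX1-activated samples overlapped. The means (± SD, n = 3) were 257 ± 7.63 in WT, 218 ± 26.6 in NC and 194 ± 16.9 in the ESX1-activated cells. YAP1 fell 1.33-fold against WT (log2 fold change -0.41, standard error 0.116, edgeR adjusted p = 0.0135). Against NC the log2 fold change was -0.17 (95% interval -0.41 to 0.07, edgeR adjusted p = 0.521). Between NC and WT it was -0.24 (95% interval -0.48 to 0.01, edgeR adjusted p = 0.171). With upper-quartile scaling, which shifted the median of all genes by 0.10 on the log2 scale against WT, the adjusted p of YAP1 against WT was 0.0591. When WT replicate 1 was left out, the log2 fold change of YAP1 was -0.39 against WT (edgeR adjusted p = 0.0278) and -0.22 in NC against WT (edgeR adjusted p = 0.251). YAP1 lies on chromosome 11 of GRCh38, chr11:102110461-102233423, plus strand (ENSG00000137693.13), and 9.97% of its exon bases also lie in exons of the antisense gene RP11-864G5.3, which had 0 counts.

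WWTR1 encodes TAZ, the paralogue of YAP. It was scarce, with 14, 11 and 19 counts in WT, 25, 41 and 28 in NC, and 59, 48 and 52 in the ESX1-activated samples. In normalized CPM these were 1.53, 1.603 and 1.98, then 2.59, 4.39 and 2.85, then 5.98, 4.83 and 9.61. The 3 groups did not overlap, with WT lowest and the ESX1-activated samples highest. WWTR1 rose 3.87-fold against WT (95% interval 2.30 to 6.52, log2 fold change 1.95, standard error 0.357, edgeR adjusted p = 0.000588). Against NC its log2 fold change was 1.02 (95% interval 0.33 to 1.72), which did not pass after adjustment (edgeR adjusted p = 0.0971, unadjusted p = 0.00626), and in the 19 alternative analyses the adjusted p ranged from 0.0554 to 0.379. Between NC and WT it was 0.93 (95% interval 0.15 to 1.70, edgeR adjusted p = 0.0922). WWTR1 remained called against WT in all 19 alternatives, with 1.86 without WT replicate 1 (edgeR adjusted p = 0.00246), where NC against WT was 0.84 (edgeR adjusted p = 0.171). WWTR1 lies at chr3:149517235-149736714 on the minus strand (ENSG00000018408.14). The counting did not use strand, and 9.45% of its exon bases also lie in exons of the antisense gene WWTR1-AS1, which had 11 counts in all samples together.

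TEAD1 and TEAD4 encode transcription factors through which YAP and TAZ reach DNA. For TEAD1 the normalized CPM was 222, 222 and 182 in WT, 207, 213 and 218 in NC, and 176, 218 and 202 in the ESX1-activated samples. The groups overlapped throughout. Its log2 fold change was -0.07 against WT (edgeR adjusted p = 0.687), -0.10 against NC (edgeR adjusted p = 0.754) and 0.03 between NC and WT (edgeR adjusted p = 0.898), and its sign against WT and between NC and WT changed in some alternatives. TEAD1 had -0.03 against WT (edgeR adjusted p = 0.874) and 0.07 in NC against WT without WT replicate 1 (edgeR adjusted p = 0.749).

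TEAD4 had normalized CPM of 97.6, 102 and 113 in WT, 95.6, 86.0 and 85.6 in NC, and 71.5, 68.5 and 60.0 in the ESX1-activated samples. The 3 groups were separate, in falling order from WT to the ESX1-activated cells, with means of 104 ± 8.11, 89.0 ± 5.66 and 66.7 ± 5.94 (SD, n = 3 each). TEAD4 fell 1.56-fold against WT (log2 fold change -0.65, standard error 0.114, edgeR adjusted p = 0.000447). It fell 1.33-fold against NC (log2 fold change -0.41, standard error 0.114, edgeR adjusted p = 0.0488). That adjusted p was close to the threshold and was below 0.05 in 8 of 19 alternatives, within a range of 0.0357 to 0.223. Among the samples left out in turn, it was lost without any 1 of the NC samples, WT replicate 2, ESX1-activated replicate 2 or ESX1-activated replicate 3. Between NC and WT the log2 fold change was -0.23 (edgeR adjusted p = 0.172). The TEAD4 values without WT replicate 1 were -0.70 against WT (edgeR adjusted p = 0.000397) and -0.28 in NC against WT (edgeR adjusted p = 0.118). TEAD4 lies at chr12:2959330-3040673, plus strand (ENSG00000197905.8), and TEAD1 at chr11:12674591-12944483, plus strand (ENSG00000187079.16).

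**Figure D2:**
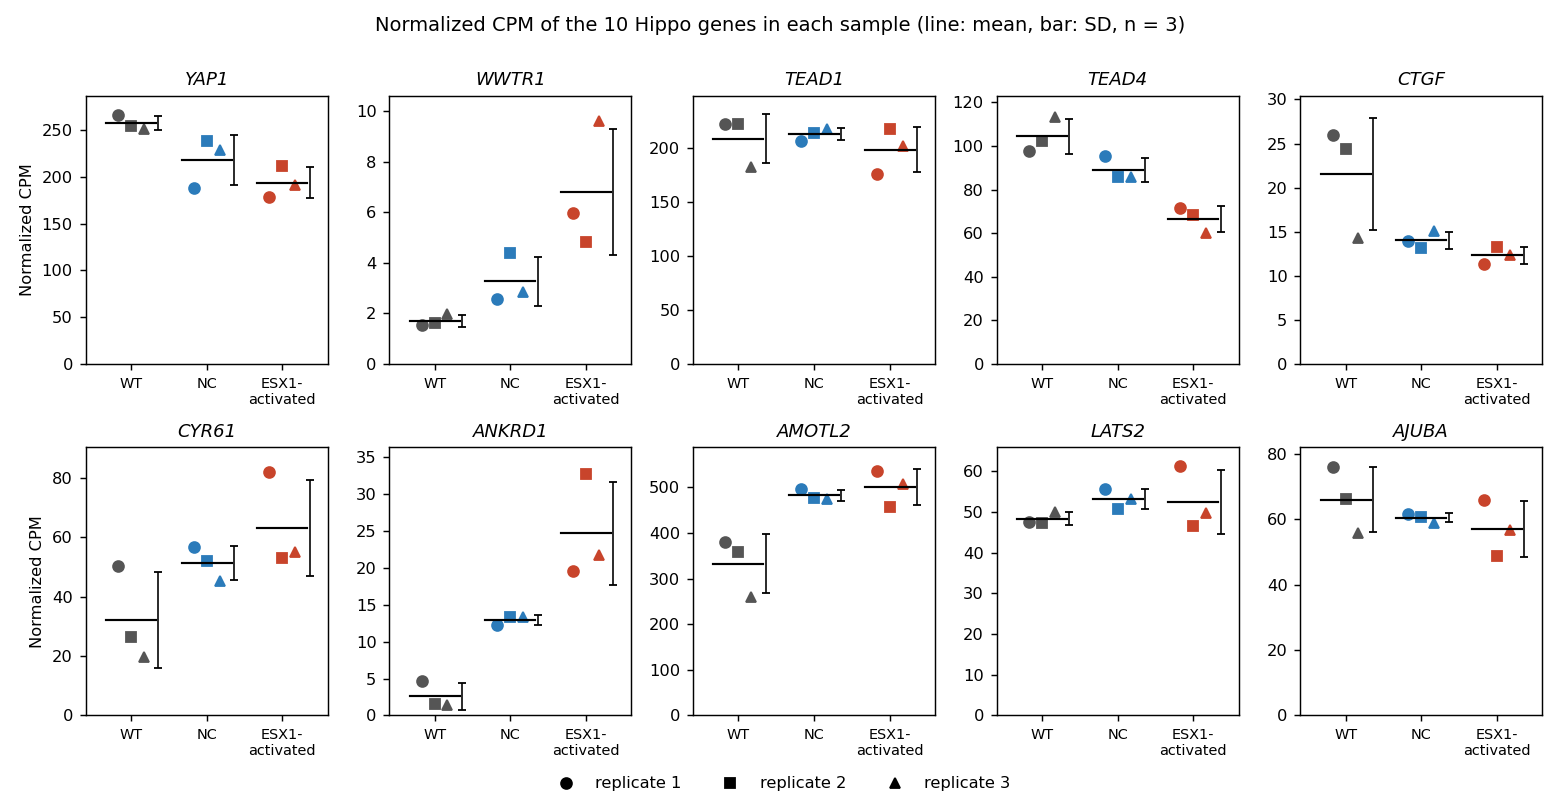
Normalized CPM of each gene (vertical axes from 0) in every sample by group; points are samples, with a shape for each replicate number, horizontal lines are means and bars are the SD (n = 3). WWTR1, ANKRD1 and TEAD4 separate all 3 groups, whereas TEAD1 and AJUBA overlap in every pair.

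CTGF (now CCN2) and CYR61 (now CCN1) encode related secreted matrix proteins of the CCN family and are the targets most often used to read YAP activity. They moved in opposite directions against WT. CTGF had normalized CPM of 25.98, 24.3 and 14.3 in WT, 13.9, 13.2 and 15.1 in NC, and 11.4, 13.3 and 12.4 in the ESX1-activated samples. All ESX1-activated samples were below the lowest WT sample, replicate 3, which lay near NC, and NC overlapped both other groups. CTGF fell 1.74-fold against WT (log2 fold change -0.80, standard error 0.211, edgeR adjusted p = 0.00892). Without WT replicate 3 the change was -1.04 (edgeR adjusted p = 0.000613), past the 2-fold threshold, and without WT replicate 1 it was -0.64 (edgeR adjusted p = 0.0403). Against NC the log2 fold change was -0.19 (95% interval -0.64 to 0.26, edgeR adjusted p = 0.746). Between NC and WT it was -0.61 (edgeR adjusted p = 0.0507), an adjusted p that was below 0.05 in 5 of 19 alternatives, and without WT replicate 1 it was -0.45 (edgeR adjusted p = 0.167).

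CYR61 had normalized CPM of 50.3, 26.4 and 19.7 in WT, 56.8, 52.2 and 45.4 in NC, and 81.9, 52.9 and 55.1 in the ESX1-activated samples. WT replicate 1 lay within the range of NC and just under the ESX1-activated samples, and the other WT samples were below all transfected samples. CYR61 rose 1.97-fold against WT (log2 fold change 0.98, standard error 0.251, edgeR adjusted p = 0.0074), just under the 2-fold threshold. Without WT replicate 1 it was called against WT, with a log2 fold change of 1.46 (edgeR adjusted p = 4.36e-05). Against NC the log2 fold change was 0.30 (95% interval -0.21 to 0.82, edgeR adjusted p = 0.611). Between NC and WT it was 0.68 (edgeR adjusted p = 0.0736), and without WT replicate 1 it was 1.16 (edgeR adjusted p = 0.000719), past the threshold. The adjusted p of CYR61 between NC and WT was below 0.05 in 6 of 19 alternatives, within a range of 0.000215 to 0.269. CYR61 lies at chr1:85580761-85583962, plus strand (ENSG00000142871.16), and CTGF at chr6:131948176-131951373, minus strand (ENSG00000118523.5), where 8.34% of its exon bases are shared with the antisense gene RP11-69I8.3, which had 9 counts in all samples together.

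ANKRD1 encodes an ankyrin repeat protein of muscle and is among the most responsive YAP targets in other cell types. Its counts were 43, 11 and 14 in WT, 118, 124 and 131 in NC, and 193, 325 and 118 in the ESX1-activated samples. The normalized CPM was 4.69, 1.603 and 1.46 in WT, 12.2, 13.3 and 13.3 in NC, and 19.6, 32.7 and 21.8 in the ESX1-activated samples. The groups were separate, and NC lay between the other two. ANKRD1 rose 9.37-fold against WT (95% interval 5.79 to 15.16, log2 fold change 3.23, standard error 0.329, edgeR adjusted p = 1.91e-06), the largest change among the 10 genes. It already rose 4.90-fold in NC against WT (log2 fold change 2.29, standard error 0.334, edgeR adjusted p = 0.000219). Both calls held in all 19 alternatives, with the log2 fold change between 2.31 and 4.0 against WT and between 1.56 and 3.07 for NC, and the highest of each came without WT replicate 1. Against NC the ESX1-activated cells were 1.91-fold higher, with a log2 fold change of 0.94 (95% interval 0.35 to 1.52) that did not pass (edgeR adjusted p = 0.0674). That adjusted p was below 0.05 in 7 of 19 alternatives and ranged from 0.000961 to 0.257. Without ESX1-activated replicate 1 the change was 1.08 (edgeR adjusted p = 0.0444), and ANKRD1 was then called. ANKRD1 lies at chr10:90912096-90921276, minus strand (ENSG00000148677.6).

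AMOTL2 encodes an angiomotin-like junction protein that binds YAP and retains it in the cytoplasm. Its normalized CPM was 381, 357 and 259 in WT, 497, 476 and 475 in NC, and 537, 457 and 506 in the ESX1-activated samples. Every transfected sample was above every WT sample, and NC and the ESX1-activated samples overlapped. AMOTL2 rose 1.5-fold against WT (log2 fold change 0.59, standard error 0.128, edgeR adjusted p = 0.00225). It rose 1.45-fold in NC against WT (log2 fold change 0.54, standard error 0.127, edgeR adjusted p = 0.00782). Against NC the ESX1-activated cells showed a log2 fold change of 0.05 (edgeR adjusted p = 0.904), whose sign turned without ESX1-activated replicate 1. The AMOTL2 log2 fold changes without WT replicate 1 were 0.69 against WT (edgeR adjusted p = 0.000821) and 0.64 in NC against WT (edgeR adjusted p = 0.00255). AMOTL2 lies at chr3:134355874-134375479, minus strand (ENSG00000114019.14).

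LATS2 encodes a kinase that phosphorylates YAP, and AJUBA a LIM domain protein that binds LATS kinases at junctions. LATS2 had normalized CPM of 47.5, 47.4 and 50.1 in WT, 55.7, 50.7 and 53.3 in NC, and 61.3, 46.5 and 49.7 in the ESX1-activated samples. The ESX1-activated samples spanned both control groups. Its log2 fold change was 0.12 against WT (edgeR adjusted p = 0.518), -0.02 against NC (edgeR adjusted p = 0.97) and 0.14 between NC and WT (edgeR adjusted p = 0.491), and the signs against WT and against NC turned when single samples were left out. AJUBA had 76.0, 66.2 and 56.0 in WT, 61.7, 60.9 and 58.9 in NC, and 65.9, 48.8 and 56.9 in the ESX1-activated samples. The AJUBA groups overlapped in every pair, with log2 fold changes of -0.21 against WT (edgeR adjusted p = 0.277), -0.08 against NC (edgeR adjusted p = 0.846) and -0.13 between NC and WT (edgeR adjusted p = 0.564). Without WT replicate 1 the log2 fold changes against WT and in NC against WT were 0.10 and 0.12 for LATS2 and -0.10 and -0.02 for AJUBA, with edgeR adjusted p from 0.607 to 0.952. LATS2 lies at chr13:20973032-21061547 (ENSG00000150457.8) and AJUBA at chr14:22971174-22982642 (ENSG00000129474.15), both on the minus strand.

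The ESX1-activated samples lay wholly above WT for 4 of the 10 genes and wholly below for 3, where the groups did not overlap for 40.3% of all tested genes. Against NC they lay above for 2 genes, WWTR1 and ANKRD1, and below for 1, TEAD4 (background 22.6%). NC lay above WT for 4 genes and below for 2 (background 37.6%). The group means rose in the order WT, NC and ESX1-activated for 4 genes, WWTR1, CYR61, ANKRD1 and AMOTL2, against 25.6% of all tested genes. They fell in that order for 4 others, YAP1, TEAD4, CTGF and AJUBA, against 24.8%, and TEAD1 and LATS2 followed neither order.

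Levels of different genes were compared as normalized CPM per kilobase of exon sequence. In WT the order was AMOTL2 (55.5), TEAD4 (46.0), YAP1 (40.9), TEAD1 (20.3), CYR61 (13.1), AJUBA (11.1), CTGF (9.21), LATS2 (8.67), ANKRD1 (1.31) and WWTR1 (0.203), in normalized CPM per kilobase. The sample ranges of AMOTL2 and TEAD4 overlapped in WT, as did those of each neighbouring pair from TEAD1 to LATS2. TEAD4 and YAP1, YAP1 and TEAD1, LATS2 and ANKRD1, and ANKRD1 and WWTR1 did not overlap. AMOTL2 was highest and WWTR1 lowest in all 3 groups. ANKRD1 stood below CTGF in WT (1.31 against 9.21 normalized CPM per kilobase) and above it in the ESX1-activated cells (12.5 against 5.28), while their ranges overlapped in NC (6.55 against 6.01). In the ESX1-activated cells YAP1 (30.8) and TEAD4 (29.4) had overlapping ranges, and so did TEAD4 and CYR61 (25.8).

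Ratios within a sample do not depend on library scaling. The 3 pairs of related genes below were chosen after their values had been seen, so the ratios are a description without a test. Per kilobase, CYR61 was 1.85, 1.03 and 1.31 times the level of CTGF in WT, 3.90, 3.77 and 2.87 times in NC, and 6.87, 3.80 and 4.24 times in the ESX1-activated samples. Every transfected sample exceeded WT, and NC overlapped the ESX1-activated samples. WWTR1 stood at 0.430%, 0.471% and 0.591% of the level of YAP1 in WT, at 1.03%, 1.38% and 0.934% in NC, and at 2.51%, 1.71% and 3.75% in the ESX1-activated samples, with no overlap between groups. YAP1 RNA thus exceeded WWTR1 RNA in every sample. TEAD4 was 1.99, 2.09 and 2.81 times TEAD1 in WT, 2.09, 1.82 and 1.78 times in NC, and 1.84, 1.42 and 1.35 times in the ESX1-activated samples, which all lay below WT and overlapped NC.

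**Figure D3:**
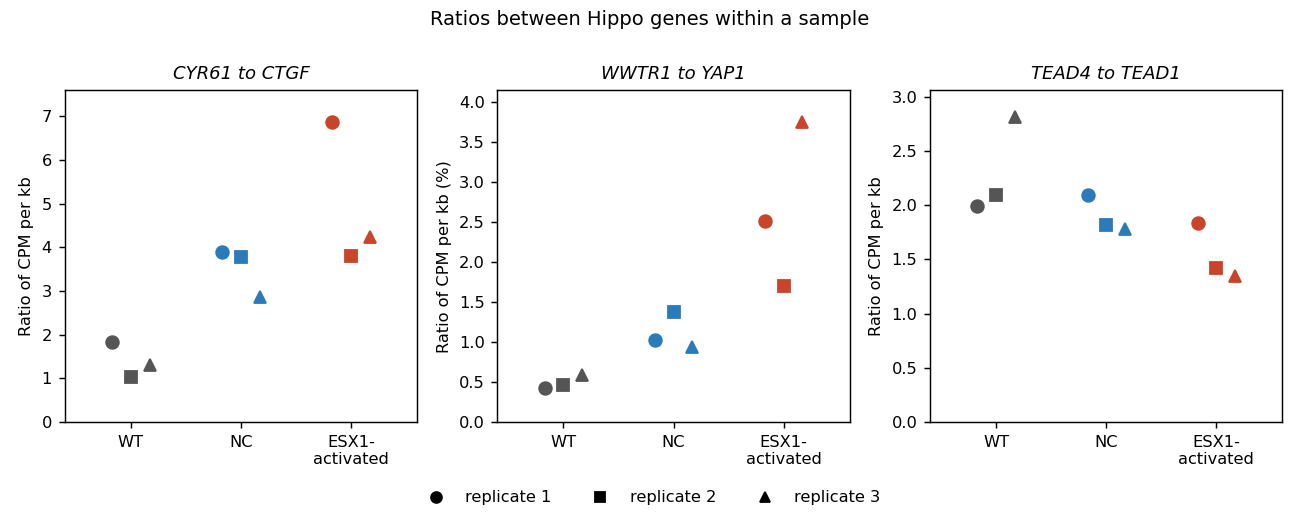
Ratio of normalized CPM per kilobase between 2 genes within each sample (points, with a shape for each replicate number), by group, with the ratio of WWTR1 to YAP1 in percent. The ratio of WWTR1 to YAP1 lies between 0.430% and 0.591% in WT and between 1.71% and 3.75% in the ESX1-activated samples.

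For CTGF and YAP1, the tested genes with the most similar pattern were sought by the root mean square difference of centred log2 normalized CPM over the 9 samples. The nearest to CTGF were RP13-735L24.1 (0.126), TMEM254 (0.163), LINC01963 (0.17), MFSD4A (0.174) and RND2 (0.174), where the pattern of CTGF itself had a root mean square of 0.393 about its mean. The nearest to YAP1 were TUBBP5 (0.045), RBM25 (0.047), ANKRD28 (0.053), CEP78 (0.057) and PHIP (0.063), where that of YAP1 was 0.199. For comparison, the median over all tested genes was 0.517 from CTGF and 0.395 from YAP1. None of the 10 nearest genes was on the pathway lists. The lists hold too few of the tested genes for this to say whether CTGF or YAP1 moved with the pathway.

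A further 47 pathway genes were listed in 4 groups, of which 45 had enough counts for testing. Of these, 5 were called higher and 3 lower against WT, 2 higher and 1 lower against NC, and 4 higher and 2 lower in NC against WT. That is 17.78%, 6.67% and 13.33% of the 45 genes, where 11.5%, 1.78% and 5.27% of all tested genes were called. Of the kinase core, edgeR called 0 of 10 tested genes in each comparison, and DESeq2 and limma also called 0, with an unadjusted p below 0.05 in edgeR for 6 genes against WT, 3 against NC and 4 between NC and WT. At any fold 3 rose and 1 fell against WT, 0 passed against NC, and 3 rose and 1 fell between NC and WT, where 28.8%, 4.25% and 17.1% of all tested genes passed. The largest change of the core was in MOB1B, an activator of LATS kinases, which fell against WT (log2 fold change -0.90, edgeR adjusted p = 0.00158). The largest rise of the core against WT was in TAOK3 (log2 fold change 0.74, edgeR adjusted p = 0.0103). SAV1, a scaffold of the MST kinases, also rose against WT (log2 fold change 0.46, edgeR adjusted p = 0.0277). The median log2 fold change of the core was 0.15 against WT, 0.09 against NC and 0.09 between NC and WT.

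Among 11 upstream and junction regulators, 2 were called lower against WT, 1 against NC and 1 in NC against WT, and at any fold 4 fell and 1 rose against WT while 4 fell and 0 rose against NC. Of all tested genes, 4.77%, 0.699% and 2.15% were called lower in these comparisons, and at any fold 15.8% fell and 12.9% rose against WT and 2.37% fell against NC. FRMD6, a FERM domain protein that promotes Hippo signalling, had normalized CPM of 300, 513 and 577 in WT, 146, 164 and 174 in NC, and 73.7, 96.7 and 73.3 in the ESX1-activated samples. Its 3 groups were separate. FRMD6 fell 5.69-fold against WT (log2 fold change -2.51, standard error 0.193, edgeR adjusted p = 1.11e-07) and 2.87-fold in NC against WT (edgeR adjusted p = 4.65e-05). Against NC it fell 1.98-fold (log2 fold change -0.99, edgeR adjusted p = 0.0045), just under the threshold. DCHS1, a large cadherin that signals to the pathway through FAT4, had 68.0, 71.4 and 88.9 in WT, 80.4, 70.4 and 74.5 in NC, and 38.6, 34.1 and 32.3 in the ESX1-activated samples. The ESX1-activated samples lay below all control samples. DCHS1 fell 2.17-fold against WT (edgeR adjusted p = 8.57e-06) and 2.14-fold against NC (log2 fold change -1.10, standard error 0.131, edgeR adjusted p = 8.77e-05), with a log2 fold change of -0.02 between NC and WT (edgeR adjusted p = 0.934). Without WT replicate 3 its change against WT fell just short of 2-fold (edgeR adjusted p = 4.2e-05). AMOTL1 and WWC3 also fell against NC, with log2 fold changes of -0.74 (edgeR adjusted p = 0.00973) and -0.72 (edgeR adjusted p = 0.00268). The median of the list was -0.28 against WT, -0.23 against NC and 0.04 between NC and WT.

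Of 6 listed TEAD family members and cofactors, 4 were tested, and 1 was called, TEAD2 in NC against WT (log2 fold change -1.03, standard error 0.198, edgeR adjusted p = 0.00188). Of all tested genes, 5.27% were called in that comparison. The call of TEAD2 was lost in 8 alternatives, and 10.7% of its exon bases also lie in exons of CD37 on the opposite strand. Its change against WT was alike in the ESX1-activated cells (log2 fold change -0.98, edgeR adjusted p = 0.00134), with a log2 fold change of 0.05 against NC.

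Of the 20 further target genes, against WT 5 were called higher and 1 lower, against NC 2 higher and 0 lower, and in NC against WT 4 higher and 0 lower, with medians of 0.81, 0.27 and 0.36. Of all tested genes, 6.78% were called higher and 4.77% lower against WT, 1.08% and 0.699% against NC, and 3.12% and 2.15% in NC against WT. At any fold 9 rose and 3 fell against WT, and 3 rose and 1 fell against NC. In NC against WT 5 rose and 1 fell. The shares of all tested genes were 12.9% and 15.8% against WT, 1.88% and 2.37% against NC, and 6.82% and 10.3% in NC against WT. DOCK5 fell against both controls, with log2 fold changes of -0.74 against WT (edgeR adjusted p = 0.00121) and -0.82 against NC (edgeR adjusted p = 0.00347). THBS1, a matrix glycoprotein, had normalized CPM of 22.7, 18.5 and 10.03 in WT, 48.0, 37.0 and 50.9 in NC, and 115, 79.4 and 210 in the ESX1-activated samples. The 3 groups were separate, in that order from lowest to highest. THBS1 rose 7.85-fold against WT (edgeR adjusted p = 2.05e-06), 2.95-fold against NC (log2 fold change 1.56, standard error 0.281, edgeR adjusted p = 0.00329) and 2.66-fold in NC against WT (edgeR adjusted p = 0.00393).

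GADD45A, a stress-response gene, rose 7.28-fold against WT (edgeR adjusted p = 6.2e-07), 4.07-fold in NC against WT (edgeR adjusted p = 8.9e-05) and 1.79-fold against NC (edgeR adjusted p = 0.0463). MYOF, a membrane repair protein, had log2 fold changes of 2.59 against WT (edgeR adjusted p = 0.000413) and 1.86 in NC against WT (edgeR adjusted p = 0.00869). WT replicate 1 again held the most MYOF of the WT samples, 424 counts against 97 and 39, and without it the change in NC was 3.17 (edgeR adjusted p = 4.73e-06), while without WT replicate 2 (edgeR adjusted p = 0.0528) and with DESeq2 (adjusted p = 0.0652) it did not pass. FOXF2, a forkhead transcription factor, was called against WT (log2 fold change 1.38, edgeR adjusted p = 0.0256) and in NC against WT (log2 fold change 1.77, edgeR adjusted p = 0.00878). Against NC its log2 fold change was -0.39 (edgeR adjusted p = 0.699). It was scarce, with at most 15 counts in WT, 42 in NC and 41 in the ESX1-activated samples. With limma its change in NC against WT was 0.83, under the 2-fold threshold. CCDC80, a secreted matrix protein, was the 1 target called lower against WT (log2 fold change -1.02, edgeR adjusted p = 0.00362), a call lost in 8 alternatives. Without WT replicate 1 the log2 fold change against WT was -2.75 for FRMD6, -1.20 for DCHS1, 3.24 for THBS1 and 3.08 for GADD45A, all still called, and -0.85 for CCDC80, which was not. Without WT replicate 1, 13 of the 45 further genes were called against WT (10 higher and 3 lower) in place of 8, and 3 of the 10 genes described first in place of 2, where 13.0% of all genes tested in that fit were called. In NC against WT the same omission gave 2 of the 10 genes in place of 1 (background 6.90%).

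**Figure D4:**
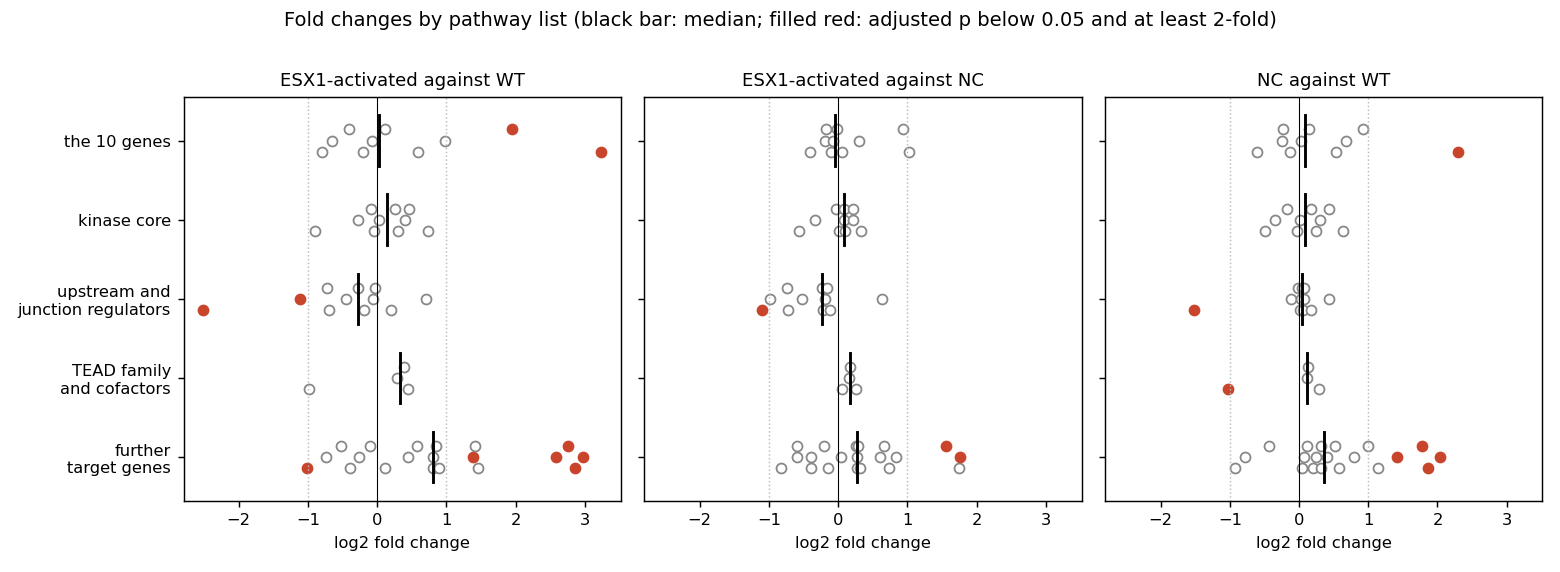
Log2 fold change of every tested gene (points) by pathway list in the 3 comparisons; black bars are list medians, dotted lines mark 2-fold, and filled red points passed an adjusted p below 0.05 and 2-fold. The further target genes have the highest median against WT (0.81), and the upstream and junction regulators have medians below 0 against WT and NC (-0.28 and -0.23).

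Markers of other cell types were also detected, the fibroblast list at the highest level. Of 8 fibroblast markers, 6 were above 3 counts in WT, 6 in NC and 7 in the ESX1-activated cells, with summed normalized CPM of 192 to 338, 134 to 171 and 110 to 230, most of it COL1A2. COL1A1, which encodes a fibroblast collagen, stood at 2.33 to 5.68 normalized CPM in WT, 15.5 to 20.0 in NC and 9.96 to 29.7 in the ESX1-activated cells. Of 6 Sertoli cell markers, 4, 4 and 5 were above 3 counts, with summed normalized CPM of 25.5 to 30.5, 26.1 to 30.6 and 18.7 to 41.2. Of 3 embryonal carcinoma markers, 3, 3 and 2 were above 3 counts, with sums of 73.2 to 83.7, 63.3 to 73.1 and 55.0 to 66.1. The part of the lower sum of the seminoma markers, and of the other lists, in the results above was not tested.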

How the data were processed

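The authors prepared ribosomal RNA-depleted stranded libraries of total RNA from 9 TCam-2 samples and sequenced them as read pairs. HISAT2 2.0.5 was used by the authors for alignment to GRCh38 and featureCounts for the counts per gene. The submitters' processing notes give version 1.6.5, and the header of the count table names another version, the GENCODE v26 annotation where the methods name v25, and no strand option. The deposited counts were not normalized, and the exon length of each gene stood beside them. A second table deposited by the authors holds log2 values, described as normalized with DESeq2, with the transformation not named. Both tables hold 63856 genes. One gives gene IDs and the other symbols, so they were joined in their common order, and within each sample the rank correlation of count and log2 value was 1.0.

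The tools were edgeR 4.0.16, DESeq2 1.42.0 and limma 3.58.1 in R 4.3.3. The filterByExpr function kept 18452 genes, and libraries were scaled by TMM. A model of 3 group means was fitted to the 9 samples together (common dispersion 0.0277) and tested with glmQLFTest. A gene was called at an adjusted p below 0.05 and at least 2-fold. On counts simulated for the comparison of ESX1-activated cells with NC over 18452 genes, with 200 genes changed 4-fold, edgeR recovered 86% with 7 false calls. Changes near 2-fold, such as those of WWTR1 and ANKRD1 against NC, were not simulated, so the recovery of such changes is not known. P-values measure the spread between these samples, which the methods describe as biological replicates.

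The genes and lists were chosen with earlier results of these data known. All 10 genes were named. Of the pathway lists, up to 3 called genes per direction and list with the largest change were named in each comparison, and other genes of the lists were named after their values were seen. A result that this rule would name is not reported here. For CTGF and YAP1 the 5 most similar genes were named. All 10 gene IDs matched the reference names, with CTGF listed as CCN2 and CYR61 as CCN1. Sequences are from RefSeq (GRCh38.p14).

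Alternatives were RLE and upper-quartile factors, DESeq2, a filter of 1 count in all or of 10 counts in every sample, a fit of the 6 samples compared, thinning of every library to 5212804 counts, removal of mitochondrial genes, limma on the authors' log2 values, the replicate number as a block, other call rules, and each sample left out in turn.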

Additional observations from a re-analysis of the deposited data

How the results depend on the processing

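Across 833 values of the named genes under the alternatives, 787 kept their direction and their side of the threshold, 26 fell below it, 11 passed it and 9 changed sign. The threshold here is that of a call, an adjusted p below 0.05 and at least 2-fold. An uncalled gene that stayed uncalled counts as kept, even where its adjusted p crossed 0.05. TEAD4 against NC counts as kept in all 19 alternatives, although its adjusted p was below 0.05 in only 8 of them. Of the 10 genes, 2 were called against WT, and 2 to 3 when single samples were omitted. With no minimum fold it was 7. Against NC the count was 0, and 0 to 1 when single samples were omitted. It was 1 without ESX1-activated replicate 1 (ANKRD1), with no minimum fold (TEAD4), and with an unadjusted p and 2-fold (WWTR1). Against both controls in the same direction it was 0, was 0 to 1 when single samples were omitted, and was 1 in the same 3 cases. In NC against WT it was 1, and 1 to 2 when single samples were omitted. It was 2 without WT replicate 1 and with no minimum fold. Of the other pathway genes, 8 were called against WT, 6 to 13 when single samples were omitted (13 without WT replicate 1), 5 with at least 10 counts in every sample and 22 with no minimum fold. Against NC they were 3, 2 to 5 when single samples were omitted (5 without ESX1-activated replicate 2), and 8 with no minimum fold. In NC against WT they were 6, 4 to 7 when single samples were omitted, and 13 with no minimum fold. CYR61 against WT was called in 8 of 19 alternatives, with log2 fold changes of 0.71 to 1.46.

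The log2 fold changes that changed sign were uncalled and small. TEAD1 against WT was 0.03 with upper-quartile factors and 0.01 without ESX1-activated replicate 1 (-0.17 at its lowest when single samples were omitted), and in NC against WT it was -0.06 without WT replicate 3 (up to 0.07). Without ESX1-activated replicate 1, AMOTL2 against NC was -0.005 (up to 0.11) and LATS2 against WT -0.01 (up to 0.20). LATS2 against NC, -0.15 at its lowest, was 0.02 without NC replicate 1, and 0.06 and 0.03 without ESX1-activated replicates 2 and 3, and AJUBA against NC, -0.20 at its lowest, was 0.02 without ESX1-activated replicate 2. The cause was not tested. Upper-quartile factors shifted the median of all genes by 0.10 against WT and 0.09 in NC against WT, and moved the share of higher genes among those called in NC against WT from 59.2% to 69.5%, while with limma on the authors' log2 values it was 49.1%.

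No source used here says what samples with the same replicate number share. Deviations of same-numbered samples correlated between -0.0297 and 0.193. These values cannot show whether the samples were paired, because samples with different numbers were not compared. With the replicate block 3 of the 10 genes were called against WT (CYR61 in addition), 0 against NC and 1 in NC against WT, and no other call among the 10 changed. With the block 1232 of all 18452 tested genes were called higher and 877 lower against WT, beside 1251 and 880 in the main fit. The WWTR1 counts, 11 to 59, limit how precisely its change is known.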
